A study of Mus musculus with 8 samples.

Results

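The 10 genes studied here, which mark neutrophils, were looked up by gene symbol in arrays of the mouse uterus, and all 10 were found among 19938 genes, each by a single probe set. They are the surface genes Ly6g, Csf3r and Trem1, the genes of secreted or cytosolic inflammatory proteins S100a8, S100a9, Il1b and Retnlg, and the granule genes Camp, Ngp and Mpo. Each value is the log2 intensity of 1 probe set on 1 array. There were 4 uteri from Foxa2-deleted mice, of genotype PgrCre/+ Foxa2flox/flox, and 4 from control mice, of genotype Pgr+/+ Foxa2+/+. In the deleted mice the Cre recombinase occupies 1 allele of the progesterone receptor gene Pgr and acts in the cells that use Pgr, so Cre and the lost Pgr allele differ between the groups together with Foxa2. Females of both groups had been mated to vasectomised wild type males and were taken on day 3.5 of pseudopregnancy, with the plug counted as day 0.5, and their age is not stated. The labels give 4 mice for each genotype and mention no pooling.

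Neutrophils are short-lived white blood cells that leave the bone marrow, follow chemokines into tissue and kill microbes with stored granule proteins. Transcripts of granule proteins such as myeloperoxidase are made mainly in marrow precursors, while those of S100a8, S100a9, Csf3r and Il1b stay abundant in circulating cells. In the mouse uterus neutrophils enter in numbers under estrogen and after mating. S100a8, S100a9 and Il1b are also made by monocytes and macrophages, and S100a8 and S100a9 by stressed epithelium. In whole uterus a larger number of such cells and more transcript in each cell cannot be told apart.

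Foxa2 itself fell, at 8.20 to 8.22 on the deleted arrays and 8.61 to 8.82 on the control arrays (log2 difference -0.52, SE 0.05, adjusted p = 0.0013, limma). Which part of Foxa2 its probe set covers is not stated. Pgr measured 11.35 to 11.81 on deleted and 11.15 to 11.27 on control arrays (log2 difference 0.37, SE 0.10, adjusted p = 0.0428), a call that 6 of the 8 omissions of a single array ended. Of 10 uterine marker genes 1 rose and none fell, where 4.5% and 6.58% of all genes did. The gene that rose was Krt8, a simple epithelium keratin (log2 difference 0.93, SE 0.17, adjusted p = 0.0148, limma). The mean level of the 10 was 11.28 to 11.45 on deleted arrays and 11.36 to 11.43 on control arrays. Array medians ran from 8.25 to 8.32, and precision is bounded by there being 8 arrays. Foxa2-deleted replicate 3 stood apart from the controls by the most, with correlations across genes of 0.960 to 0.963 with the control arrays, against 0.976 to 0.990 for the other deleted arrays, so the neutrophil gene results are also given without it.

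Of the 10 neutrophil genes, 6 (S100a8, S100a9, Ly6g, Csf3r, Il1b and Trem1) were higher on all 4 deleted arrays than on any control array. The same held for 9.55% of all genes tested. After adjustment over all genes 1 of the 10, Ly6g, rose past the threshold of 0.05 (limma), where 4.5% of all genes did, and none fell, where 6.58% did. By at least 1.5-fold and past that threshold the count was again 1 of 10, against 1.76% of all genes. The median difference of the 10 genes was 0.77 on the log2 scale, and that of all genes was 0.01. For each of the 6 genes the exact permutation test over the 70 divisions of the arrays gave p = 0.029 (two-sided, not adjusted), the smallest value that 4 against 4 arrays allow. Groups without overlap always give this value, so the test adds nothing to the count of 6. The granule genes Camp, Ngp and Mpo and the resistin-like gene Retnlg overlapped between the groups.

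**Figure D1:**
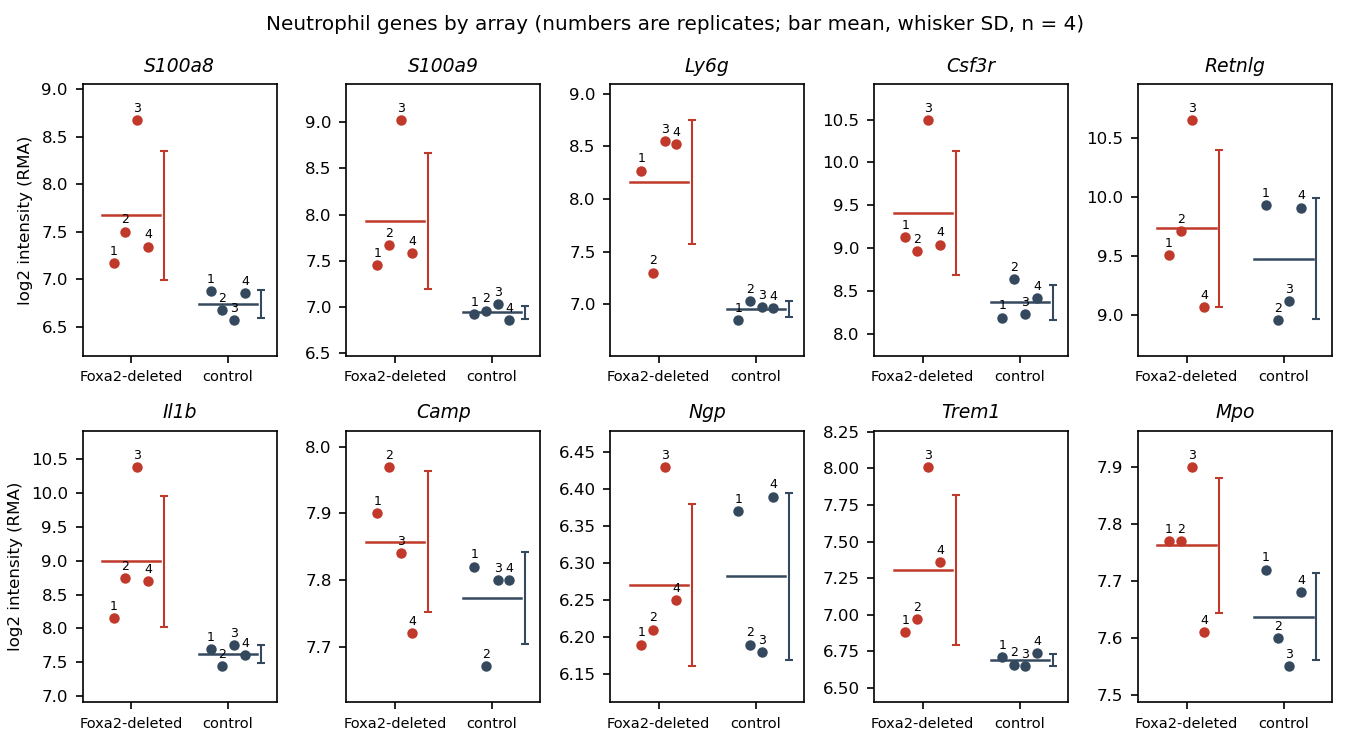
Log2 intensity (vertical axis, RMA) of the 10 neutrophil genes in Foxa2-deleted (left, red) and control (right, blue) uteri. Each point is 1 array with its replicate number, the bar is the mean and the whisker the SD of 4 arrays. In S100a8, S100a9, Ly6g, Csf3r, Il1b and Trem1 the deleted arrays all lie above the controls, and replicate 3 is the highest deleted array in 9 of the 10 genes.

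Ly6g encodes a small lipid-anchored surface protein that serves as the standard surface marker of mouse neutrophils. It measured 8.27, 7.30, 8.55 and 8.52 on Foxa2-deleted replicates 1 to 4, against 6.85, 7.03, 6.97 and 6.96 on control replicates 1 to 4. Replicates 1, 3 and 4 of the deleted group were close together and high, replicate 2 lay nearest the controls, and the groups did not overlap. Ly6g averaged 8.16 ± 0.59 in deleted uteri and 6.95 ± 0.08 in control uteri (SD, n = 4 each), a 2.31-fold rise (log2 difference 1.21, SE 0.25, adjusted p = 0.0212, limma). Without Foxa2-deleted replicate 2 the difference was 1.49 (SE 0.08, adjusted p = 6.2e-05), and without replicate 3 it was 1.08 (SE 0.25, adjusted p = 0.0339). The call was lost without Foxa2-deleted replicate 1 or without any 1 of the 4 controls, with adjusted p from 0.0527 to 0.066. Ly6g has near-identical relatives in the Ly6 gene cluster, and whether transcripts of these add to its probe set was not tested. Of 5 other genes of the Ly6 family measured by a probe set of their own, none passed (median difference 0.11), and 5 of 5 lay above 0. Ly6i, the nearest to passing, measured 7.74, 7.41, 8.92 and 7.38 on deleted arrays and 7.05 to 7.21 on control arrays (log2 difference 0.74, SE 0.30, adjusted p = 0.133, limma). All 4 deleted arrays lay above the controls, with replicate 3 the highest. Ly6i passed without Foxa2-deleted replicate 3, at 0.39 (SE 0.09, adjusted p = 0.0366), the 1 gene of the 5 that did.

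Since Ly6g was the gene that passed, its promoter is shown, from RefSeq on GRCm38.p6. It covers 250 bases before and 50 after the annotated start, written 5′ to 3′ on the gene's strand. The RefSeq table gives 2 starts for Ly6g and the first is printed. Capitals mark matches to short motifs, searched on both strands. The motifs were TATAAA, the core of the TATA box, GAGGAAGT, bound by the myeloid factor PU.1, TTNNGNAAT, bound by C/EBP factors that direct granulocyte genes, TNTTTAC, bound by forkhead factors such as FOXA2, TGANTCA, bound by AP-1, and the NF-kB site.
Ly6g (chr15:75155011-75155310, plus strand): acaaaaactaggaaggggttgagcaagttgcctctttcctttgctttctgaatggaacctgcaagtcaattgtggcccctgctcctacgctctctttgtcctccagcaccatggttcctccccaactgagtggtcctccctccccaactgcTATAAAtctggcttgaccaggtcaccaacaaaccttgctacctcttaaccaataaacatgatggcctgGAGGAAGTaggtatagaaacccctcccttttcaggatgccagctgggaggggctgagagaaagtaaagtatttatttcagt
The capitals mark TATAAA from -99 to -94 and GAGGAAGT from -31 to -24, counted from the start with no position 0. Of 32851 promoters of this length in the table, 13.6% hold TATAAA and 3.2% hold GAGGAAGT. TATAAA was found in 4 of the 10 neutrophil promoters (S100a8, S100a9, Ly6g and Il1b) and GAGGAAGT in 3 (S100a8, Ly6g and Mpo). A match is letters only and does not show that a factor binds.

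Csf3r encodes the receptor for granulocyte colony-stimulating factor, the cytokine that drives neutrophil production and release. It measured 9.13, 8.97, 10.49 and 9.04 on Foxa2-deleted replicates 1 to 4 and 8.19, 8.64, 8.23 and 8.42 on control replicates 1 to 4. Replicate 3 was high, the other deleted arrays lay between 8.97 and 9.13, and the groups did not overlap. Csf3r averaged 9.41 ± 0.72 in deleted uteri and 8.37 ± 0.21 in control uteri (SD, n = 4 each), a log2 difference of 1.04 (SE 0.31, adjusted p = 0.0646, limma) that did not pass. Without Foxa2-deleted replicate 3 the difference was smaller and passed (0.68, SE 0.11, adjusted p = 0.00938). It also passed without Foxa2-deleted replicate 2.

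Trem1, a receptor that amplifies inflammatory signalling on neutrophils and monocytes, measured 6.88, 6.97, 8.01 and 7.36 on Foxa2-deleted replicates 1 to 4 and 6.71, 6.66, 6.65 and 6.74 on control replicates 1 to 4. The lowest deleted array exceeded the highest control by 0.14, the narrowest gap among the 6 genes without overlap. The log2 difference was 0.62 (SE 0.22, adjusted p = 0.0934, limma). It passed neither with all arrays nor without any 1 array, and without Foxa2-deleted replicate 3 it was 0.38 (SE 0.11, adjusted p = 0.0606). The 6 other genes of the TREM receptor group, including the adaptor gene Tyrobp, gave no call and a median difference of 0.18. Treml1, the nearest to passing, measured 8.55 to 8.66 on deleted arrays and 8.30 to 8.49 on control arrays (log2 difference 0.185, SE 0.05, adjusted p = 0.056, limma). It passed in 4 of the 10 alternatives that kept every array (adjusted p at least 0.0319). Trem3, which is also found on myeloid cells, measured 7.40, 7.62, 8.55 and 7.69 on deleted arrays and 7.34 to 7.41 on control arrays (log2 difference 0.44, SE 0.21, adjusted p = 0.189, limma).

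S100a8 and S100a9 encode the 2 subunits of calprotectin, a calcium- and zinc-binding protein that makes up much of the neutrophil cytosol. The genes are direct neighbours in gene order, with 0 other genes between them. S100a8 measured 7.17, 7.50, 8.67 and 7.34 on Foxa2-deleted replicates 1 to 4, against 6.87, 6.67, 6.57 and 6.85 on control replicates 1 to 4. S100a9 measured 7.45, 7.67, 9.02 and 7.58 on the deleted arrays, against 6.92, 6.96, 7.03 and 6.86 on the control arrays. Both genes ranked the deleted arrays in the same order, with replicate 3 high and replicate 1 low, and neither overlapped with the controls. The log2 differences were 0.93 for S100a8 (SE 0.29, adjusted p = 0.0696, limma) and 0.99 for S100a9 (SE 0.30, adjusted p = 0.0688, limma). Without Foxa2-deleted replicate 3 both were smaller, with smaller errors, and passed, at 0.60 (SE 0.10, adjusted p = 0.0116) for S100a8 and 0.62 (SE 0.07, adjusted p = 0.00176) for S100a9.

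The promoters of this pair are shown because the genes ordered the deleted arrays alike, with the same layout and marking as for Ly6g.
S100a8 (chr3:90668821-90669120, plus strand): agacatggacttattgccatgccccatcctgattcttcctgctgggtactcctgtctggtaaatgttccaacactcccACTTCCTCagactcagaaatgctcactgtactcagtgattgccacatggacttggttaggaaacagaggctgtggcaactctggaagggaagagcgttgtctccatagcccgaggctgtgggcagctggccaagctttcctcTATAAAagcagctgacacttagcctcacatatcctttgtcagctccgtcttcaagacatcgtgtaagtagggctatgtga
S100a9 (chr3:90695672-90695971, minus strand): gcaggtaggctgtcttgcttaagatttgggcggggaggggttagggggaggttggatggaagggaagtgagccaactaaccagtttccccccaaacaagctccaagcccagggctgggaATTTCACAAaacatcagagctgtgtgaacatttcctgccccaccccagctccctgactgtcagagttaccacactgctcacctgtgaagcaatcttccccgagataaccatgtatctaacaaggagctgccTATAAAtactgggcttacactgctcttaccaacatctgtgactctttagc
In S100a8 the capitals mark TATAAA from -30 to -25 and GAGGAAGT on the minus strand from -172 to -165, which stands in the printed strand as its reverse complement. In S100a9 they mark TATAAA from 1 to 6 and the C/EBP letters TTGTGAAAT on the minus strand from -131 to -123. TTNNGNAAT stands in 11.5% of all promoters of the table and in 3 of the 10 neutrophil promoters, those of S100a9, Il1b and Ngp.

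Of 14 other S100 genes and S100pbp, which encodes an S100-binding protein, 1 was called higher, 2 lower and 12 neither, with a median difference of -0.09. Over all genes 4.5% were called higher and 6.58% lower. S100g, the vitamin D- and estrogen-responsive calcium carrier calbindin-D9k, measured 9.38, 11.31, 9.98 and 9.69 on deleted arrays and 11.75 to 11.96 on control arrays and fell by 1.80 (SE 0.35, adjusted p = 0.0189, limma). S100a6 fell by 0.26 (SE 0.05, adjusted p = 0.0199) and S100a11 rose by 0.25 (SE 0.06, adjusted p = 0.0301). Omitting control replicate 2, 3 or 4 ended each of these 3 calls, and adjusted p reached 0.0891.

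Il1b encodes interleukin 1 beta, the inflammatory cytokine that activated myeloid cells release after cleavage by caspase 1. It measured 8.15, 8.74, 10.38 and 8.70 on Foxa2-deleted replicates 1 to 4, against 7.70, 7.44, 7.75 and 7.61 on control replicates 1 to 4. Replicate 3 was high, replicate 1 was the nearest to the controls, and the groups did not overlap. Il1b averaged 8.99 ± 0.96 in deleted uteri and 7.63 ± 0.14 in control uteri (SD, n = 4 each), the largest difference among the 10 genes (log2 1.37, SE 0.40, adjusted p = 0.0606, limma). Without Foxa2-deleted replicate 3 it was 0.91 (SE 0.14, adjusted p = 0.00963), and it also passed without Foxa2-deleted replicate 1. Its promoter is printed for comparison with that of S100a9, whose C/EBP letters it shares.
Il1b (chr2:129371090-129371389, minus strand): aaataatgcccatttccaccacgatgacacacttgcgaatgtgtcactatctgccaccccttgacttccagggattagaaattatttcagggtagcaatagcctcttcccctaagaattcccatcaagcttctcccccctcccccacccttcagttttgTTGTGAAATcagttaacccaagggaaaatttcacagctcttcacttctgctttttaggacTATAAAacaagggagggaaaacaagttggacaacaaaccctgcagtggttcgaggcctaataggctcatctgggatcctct
The capitals mark TTGTGAAAT on the plus strand from -91 to -83 and TATAAA from -31 to -26. No TGANTCA and no NF-kB site was found in any of the 10 neutrophil promoters, while 7.81% and 1.37% of all promoters of the table hold them.

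Retnlg encodes a resistin-like secreted protein that is abundant in mouse neutrophils. It measured 9.51, 9.71, 10.65 and 9.07 on Foxa2-deleted replicates 1 to 4, against 9.93, 8.96, 9.12 and 9.91 on control replicates 1 to 4. Replicate 3 was again the highest array, but the other deleted arrays lay within the range of the controls. The log2 difference was 0.26 (SE 0.35, adjusted p = 0.639, limma), and it was -0.05 (SE 0.27) without Foxa2-deleted replicate 3. The controls themselves spread over 0.97, the widest control range among the 10 genes. Its promoter is shown because it was the 1 neutrophil promoter of the 10 with forkhead letters, which 12.4% of all promoters hold.
Retnlg (chr16:48872358-48872657, plus strand): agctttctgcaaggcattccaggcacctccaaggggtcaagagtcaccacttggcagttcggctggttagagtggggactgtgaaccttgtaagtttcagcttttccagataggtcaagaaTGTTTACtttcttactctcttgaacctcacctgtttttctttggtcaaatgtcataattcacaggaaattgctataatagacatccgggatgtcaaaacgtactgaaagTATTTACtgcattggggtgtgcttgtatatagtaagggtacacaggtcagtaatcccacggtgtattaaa
The capitals mark TGTTTAC from -129 to -123 and TATTTAC from -20 to -14. Of 5 resistin-like and cystatin genes other than Retnlg, Camp and Ngp none passed, with a median difference of 0.03. The resistin gene Retn, a product of fat tissue in mice, measured 10.67, 11.93, 11.29 and 11.53 on deleted arrays and 9.43 to 11.40 on control arrays (log2 difference 0.998, SE 0.45, adjusted p = 0.17, limma). The cystatin C gene Cst3 measured 12.33 to 12.63 on deleted and 12.47 to 12.67 on control arrays.

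The granule genes varied little between arrays. Mpo encodes myeloperoxidase, the peroxidase of the primary granules, and measured 7.77, 7.77, 7.90 and 7.61 on Foxa2-deleted replicates 1 to 4 and 7.72, 7.60, 7.55 and 7.68 on control replicates 1 to 4, with a log2 difference of 0.13 (SE 0.07, adjusted p = 0.242, limma). Camp, the cathelicidin antimicrobial peptide of the secondary granules, measured 7.90, 7.97, 7.84 and 7.72 on deleted arrays and 7.82, 7.67, 7.80 and 7.80 on control arrays, with a log2 difference of 0.09 (SE 0.06, adjusted p = 0.381, limma). Ngp, a cystatin-like secondary granule protein, measured 6.19, 6.21, 6.43 and 6.25 on deleted arrays and 6.37, 6.19, 6.18 and 6.39 on control arrays, with a log2 difference of -0.01 (SE 0.07, adjusted p = 0.923, limma). All 3 overlapped between the groups. Without Foxa2-deleted replicate 3 the differences of Mpo, Camp and Ngp were 0.08, 0.09 and -0.07, and none passed. No detection call comes with the values, and S100a8, Ngp and Trem1 were among the dimmest 25% of genes, where RMA understates fold changes. Camp and Mpo, with S100a9, Ly6g and Il1b, also lay in the lower 50%. Whether low signal limits the differences of Camp and Mpo was not tested.

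**Figure D2:**
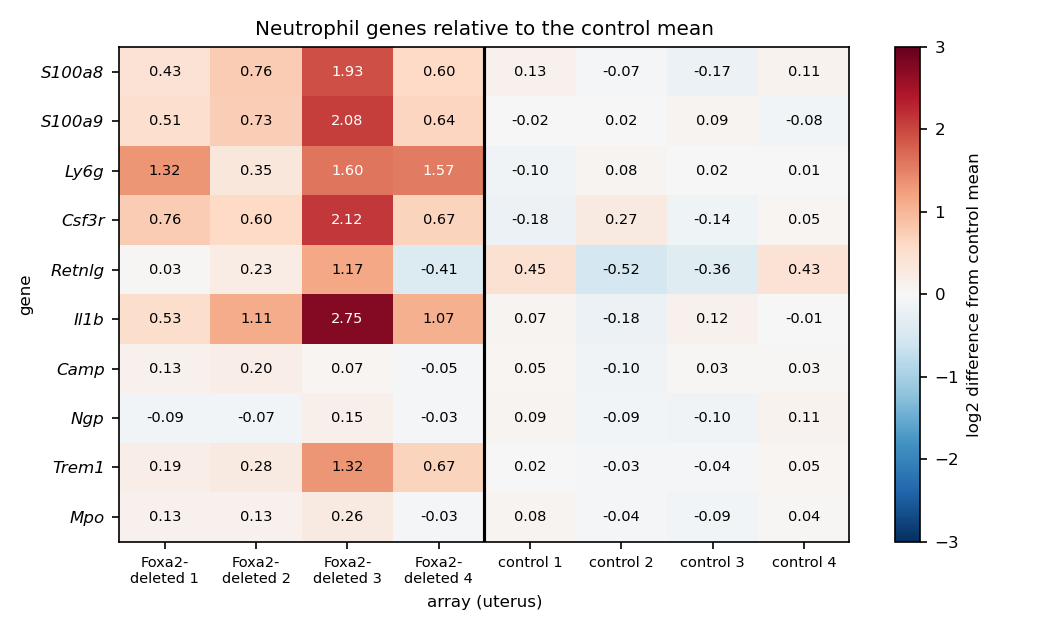
Log2 difference of each array from the control mean for the 10 neutrophil genes (rows), with the 4 Foxa2-deleted arrays left of the line and the 4 control arrays right of it. Foxa2-deleted replicate 3 reaches 2.75 for Il1b and 2.12 for Csf3r, while Ly6g is nearly as high on replicate 4 (1.57) as on replicate 3 (1.60).

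The height of the change differed between the deleted uteri. Averaged over the 10 genes and set against the control mean, Foxa2-deleted replicates 1 to 4 lay at 0.39, 0.43, 1.34 and 0.47, and the control arrays between -0.07 and 0.07. Over the 6 genes without overlap the deleted arrays lay at 0.62, 0.64, 1.97 and 0.87. Being above 0 was fixed by the choice of these 6, so only the order among the deleted arrays is described. Foxa2-deleted replicate 3 was the highest of the 4 deleted arrays in 9 of the 10 genes, Camp being the exception. It was the highest in 29.1% of all genes and in 471 of the 898 genes that rose. Ly6g followed another order than S100a8, S100a9 and Il1b, as replicates 1 and 4 were near replicate 3 and replicate 2 was low. The SD among deleted uteri exceeded that among controls in 9 of the 10 genes, Ngp being the exception, and in 70.3% of all genes. Its median over the 10 genes was 0.63 in deleted and 0.09 in control uteri, against 0.10 and 0.07 over all genes.

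In 7 other settings with all 8 arrays Ly6g was the 1 gene of the 10 that rose. The share of all genes that rose was 4.09% after a repeated quantile normalisation, 5.43% with arrays centred on their median, 4.35% after cyclic loess, 4.39% with a robust trended variance, 4.51% with the mean of a gene's probe sets, 2.18% with the replicate number as a block and 5.61% without the dimmest 25% of genes. Without the lower 50% of genes only Csf3r and Retnlg were left, and neither passed in limma (1 of the 2 at an unadjusted p under 0.05, background 5.35%). Without Foxa2-deleted replicate 3, 5 of the 10 genes rose (S100a8, S100a9, Ly6g, Csf3r and Il1b), where 4.16% of all genes did. The same 5 rose when limma weighted arrays by their fit (6.78% of all genes) or gave each genotype its own variance (5.67%). Without Foxa2-deleted replicate 1 only Il1b rose (2.29% of all genes), without replicate 2 Ly6g and Csf3r (5.87%), and without replicate 4 Ly6g (6.89%). Without any 1 of the control arrays none of the 10 passed in limma, where 2.32%, 1.05%, 1.06% and 0.983% of all genes rose without control replicates 1 to 4, and 6 had an unadjusted p under 0.05 in each case.

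**Figure D3:**
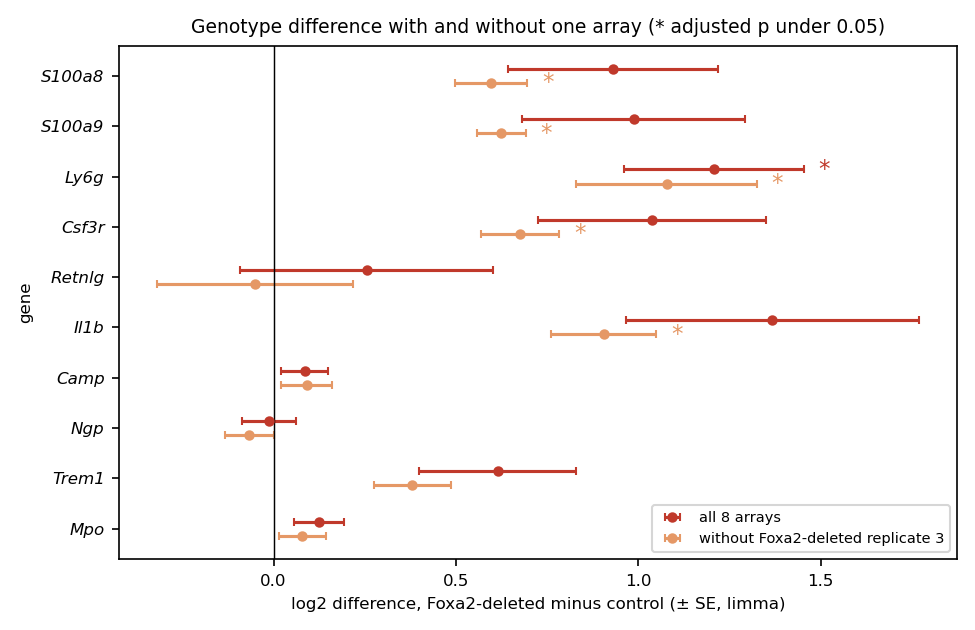
Log2 difference (Foxa2-deleted minus control, limma, bars ± SE) of the 10 neutrophil genes with all 8 arrays (dark) and without Foxa2-deleted replicate 3 (light); asterisks mark adjusted p under 0.05. Leaving out the array lowers the differences of S100a8, S100a9, Csf3r and Il1b but narrows their errors, and leaves Camp and Mpo near 0.

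Other neutrophil genes came from 3 lists by role. Of 15 further granule and oxidase genes (of 16 listed), 5 rose, where 4.5% of all genes did, and 10 did not pass (median difference 0.31). Without overlap 7 of the 15 lay higher, where 9.55% of all genes did. The largest differences were those of Lcn2 (4.25, SE 0.12) and Ltf (4.18, SE 0.25), iron-binding proteins of secondary granules that uterine epithelium also secretes. Pglyrp1, a granule protein that binds bacterial peptidoglycan, measured 10.97, 10.47, 12.00 and 10.57 on Foxa2-deleted replicates 1 to 4 and 9.30 to 9.49 on control arrays, a rise of 1.60 (SE 0.29, adjusted p = 0.0153, limma). Padi4, the enzyme that citrullinates histones in neutrophils, measured 8.72, 8.14, 9.59 and 8.65 on deleted arrays and 7.36 to 7.53 on control arrays and rose by 1.33 (SE 0.25, adjusted p = 0.0169, limma). The fifth, the primary granule protease gene Ctsg, is outside the naming rule and is given because it completes the count, with a rise of 0.31 (SE 0.06, adjusted p = 0.0197). Omitting control replicate 3 or 4 ended the calls of Pglyrp1, Padi4 and Ctsg (for Padi4 and Ctsg also control replicate 2), and adjusted p reached 0.067, while Lcn2 and Ltf kept theirs without each single array.

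Of 13 further surface genes (of 16 listed), 1 rose, where 4.5% of all genes did, and the others did not pass (median difference 0.16). Without overlap 4 of the 13 lay higher and 1 lower, where 9.55% and 11.6% of all genes did. The lower 1 was Itgb2, outside the naming rule, with 9.25 to 9.82 on deleted arrays and 9.86 to 10.42 on control arrays. Its log2 difference was -0.48 (SE 0.15, adjusted p = 0.0718, limma). The gene that rose was Cxcr2, the receptor by which neutrophils follow CXC chemokines. It measured 7.79, 7.41, 9.61 and 7.58 on Foxa2-deleted replicates 1 to 4, against 5.86, 5.56, 5.71 and 5.93 on control replicates 1 to 4. Every deleted array was well above every control, and the rise was 5.04-fold (log2 2.33, SE 0.43, adjusted p = 0.0154, limma), which omitting control replicate 2 or 3 ended (adjusted p at most 0.0539). Of 11 cytosolic and transcription factor genes (of 14 listed) 1 rose, 1 fell and 9 did not pass (median difference 0.04). Over all genes 4.5% rose and 6.58% fell. Asprv1, an aspartic protease gene of skin that is also found in mouse neutrophils, rose by 0.68 (SE 0.16, adjusted p = 0.0294), ended by omitting any 1 control (up to 0.0894). Csta1, a stefin-type cysteine protease inhibitor gene, fell by 0.30 (SE 0.06, adjusted p = 0.0169), ended by omitting control replicate 2, 3 or 4 (up to 0.058). Its signal was very low, at 3.73 to 3.91 on deleted and 4.02 to 4.19 on control arrays, where array medians were 8.25 to 8.32. In these 3 lists Foxa2-deleted replicate 3 was the highest deleted array in 11 of 15, 11 of 13 and 7 of 11 genes.

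Of 10 genes of the interleukin 1 axis besides Il1b (of 13 listed), 1 rose and the others did not pass (median difference 0.23). Over all genes 4.5% rose. Il1a, the sister cytokine of Il1b that epithelium also makes, measured 7.88, 8.27, 10.25 and 8.17 on Foxa2-deleted replicates 1 to 4, against 5.88 to 6.05 on the control arrays. It rose 6.29-fold (log2 2.65, SE 0.45, adjusted p = 0.0122, limma), with no overlap, and kept its call without each single array. Il1rn, the receptor antagonist of the pathway, measured 7.97, 8.34, 9.24 and 8.25 on deleted arrays and 7.61 to 7.85 on control arrays (log2 difference 0.71, SE 0.23, adjusted p = 0.0806, limma). Myd88, outside the naming rule, was nearer to passing and lower in deleted uteri, while 7 of the 10 lay above 0. It measured 10.54, 11.51, 10.96 and 10.40 on deleted arrays and 11.44 to 11.84 on control arrays (log2 difference -0.78, SE 0.22, adjusted p = 0.0533, limma).

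Of 11 neutrophil attractant and adhesion genes (of 13 listed), 1 rose, 3 fell and 7 did not pass (median difference 0.18). Over all genes 4.5% rose and 6.58% fell. The chemokine gene Cxcl3 rose by 0.25 (SE 0.05, adjusted p = 0.025), ended by omitting control replicate 2, 3 or 4 (up to 0.079). The adhesion genes Icam1 and Sele, which serve to hold leukocytes at the vessel wall, fell by 0.39 (SE 0.07, adjusted p = 0.0122) and 0.33 (SE 0.07, adjusted p = 0.02), and Cxcl15, a chemokine gene of uterine glands, fell by 3.985 (SE 0.11). Sele was no longer called without Foxa2-deleted replicate 1 or control replicate 1, 2 or 4 (at most 0.0674). Cxcl2 and Cxcl5, genes of CXCR2 ligands, were picked for description after their values were seen. Other CXCR2 ligand genes of the list differed less, Cxcl3 as given above and Cxcl1, outside the naming rule. Cxcl1 measured 7.62 to 7.98 on deleted arrays and 7.52 to 7.77 on control arrays (log2 difference 0.20, SE 0.09, adjusted p = 0.171, limma). Cxcl5 measured 6.51, 8.04, 9.92 and 8.03 on Foxa2-deleted replicates 1 to 4 and 6.46 to 6.76 on control arrays (log2 difference 1.53, SE 0.58, adjusted p = 0.113, limma). Cxcl2 measured 6.38, 7.37, 9.06 and 7.47 on deleted arrays and 6.10 to 6.33 on control arrays (log2 difference 1.33, SE 0.46, adjusted p = 0.0912, limma). Foxa2-deleted replicate 1 lay inside the control range in Cxcl5 and just above it in Cxcl2, and replicate 3 was the highest in both.

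**Figure D4:**
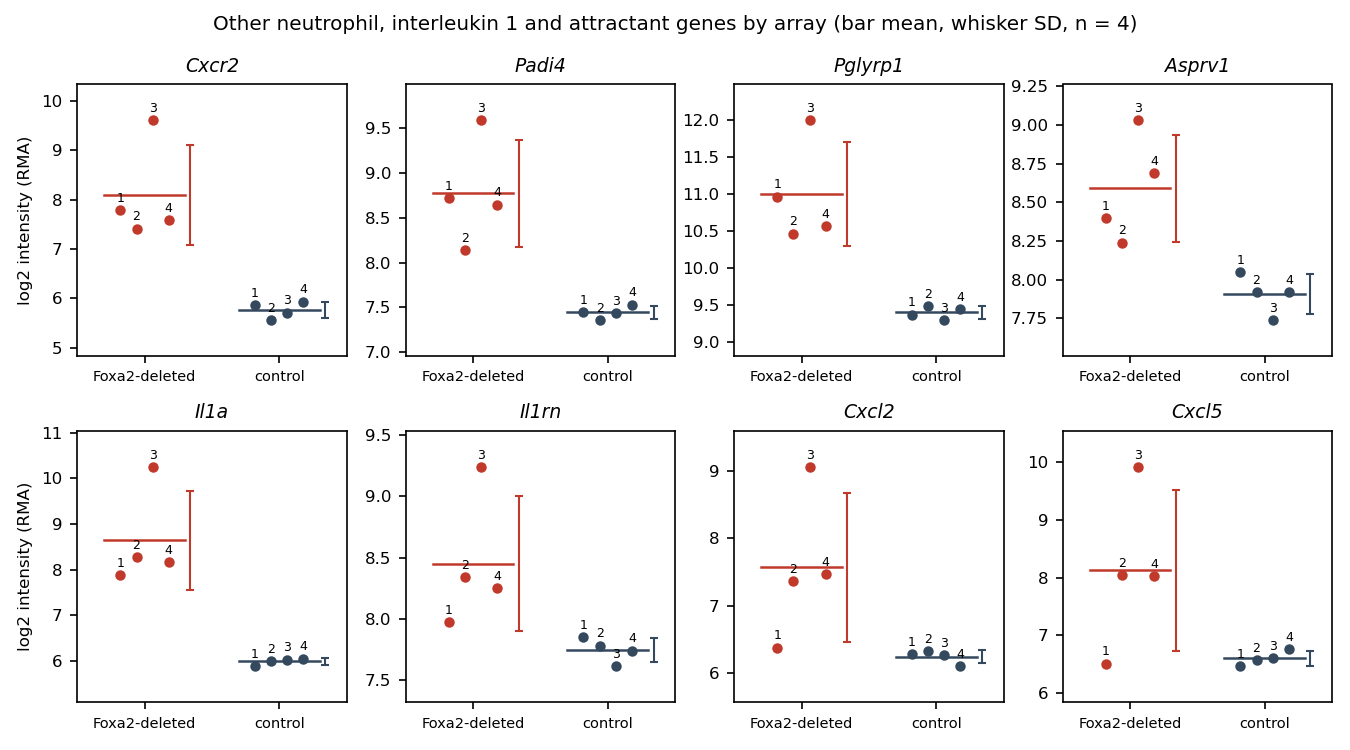
Log2 intensity (vertical axis, RMA) of 8 further genes in Foxa2-deleted (left, red) and control (right, blue) uteri, with points numbered by replicate, bars for the mean and whiskers for the SD of 4 arrays. In Cxcr2, Il1a, Padi4 and Pglyrp1 all deleted arrays lie far above the controls, while Cxcl2 and Cxcl5 are near the control level on deleted replicate 1 and highest on replicate 3.

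Other cell types were followed through marker lists, to be set against the 4.5% of all genes that rose and the 6.58% that fell. Of 6 pan-leukocyte genes none rose and 1 fell, Ptprc, the CD45 gene of all white blood cells, with 9.52 to 10.02 on deleted arrays and 10.21 to 10.36 on control arrays (log2 difference -0.49, SE 0.10, adjusted p = 0.024). Omitting any 1 control ended that call (up to 0.078). All 6 differences of that list lay below 0 (median difference -0.37). The mean level of that list was 9.90 to 10.42 on deleted arrays and 10.37 to 10.74 on control arrays. Of 11 macrophage and monocyte markers none passed (median difference -0.08), and their mean level ran from 9.60 to 10.14 on deleted arrays and from 9.74 to 10.11 on control arrays. None of 6 eosinophil markers (7.20 to 7.57 on deleted and 7.25 to 7.46 on control arrays) and none of 4 B cell markers passed (7.16 to 7.37 on deleted and 7.10 to 7.56 on control arrays). Of 8 mast cell and basophil markers 1 fell, Kit, by 0.96 (SE 0.20, adjusted p = 0.0231), which omitting any 1 control ended (up to 0.0745), and their mean level was 7.42 to 7.80 on deleted and 7.85 to 8.16 on control arrays. The 2 measured red cell genes (of 6 listed) did not pass, at 7.96 to 8.34 on deleted and 7.85 to 8.08 on control arrays. The part of these cell types in the neutrophil values was not tested.

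Of 12 squamous epithelium markers 4 rose, where 4.5% of all genes did, and 8 did not pass (median difference 0.23). The mean level of the 12 was 7.18 to 7.57 on deleted arrays and 7.001 to 7.10 on control arrays. The keratin genes Krt4, Krt13 and Krt14 rose by 0.22 (SE 0.05), 0.43 (SE 0.11) and 0.29 (SE 0.08), and Ivl, the cornified envelope protein involucrin, by 0.25 (SE 0.06). Their adjusted p lay between 0.0238 and 0.0455, and omission of single arrays, control replicate 1, 2 or 4 among them, ended each call (up to 0.118). All 4 calls also ended after a repeated quantile normalisation, after cyclic loess and with the replicate block. Krt4, Krt13 and Ivl were among the dimmest 25% of genes. Foxa2-deleted replicate 3 was the highest deleted array in 9 of the 12. Trp63, the basal cell factor that defines squamous epithelium, measured 7.72 to 7.79 on deleted arrays and 7.68 to 7.76 on control arrays. Their part in the values of S100a8 and S100a9 was not tested.

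The same lists were counted without Foxa2-deleted replicate 3, where 4.16% of all genes rose and 5.21% fell. Of the 15 granule and oxidase genes 6 rose, of the 13 surface genes 3, of the 10 interleukin 1 genes 3 and of the 11 attractant and adhesion genes 1, with 3 of the 11 lower. Cxcr2 stood at 1.83 (SE 0.11, adjusted p = 0.000113, limma) and Il1a at 2.12 (SE 0.09, adjusted p = 1.67e-05, limma), both smaller and with smaller errors than with all arrays. Pglyrp1 and Padi4 rose by 1.27 (SE 0.11) and 1.06 (SE 0.13). Il1rn passed at 0.44 (SE 0.10, adjusted p = 0.0279), while Cxcl2 and Cxcl5, at 0.83 (SE 0.23) and 0.93 (SE 0.34), did not. Of the 12 squamous markers 2 rose, and of the 6 pan-leukocyte genes 4 fell.

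Genes whose values ran most alike over the 8 arrays were listed by Pearson correlation, which both the genotype step and the height of 1 array can raise. For S100a8 the 5 nearest were Mvd, an enzyme gene of cholesterol synthesis, Krt6b, a keratin gene of stressed epithelium, Tpi1, a glycolysis enzyme gene, Slc2a6, a sugar transporter gene, and Il1rn, with r from 0.992 to 0.995. For Ly6g they were Ano9, Hmgcll1, Fuca2, Tiam1 and Ston2, with r from 0.985 to 0.996. No gene stood in both lists. A gene picked for running like S100a8 or Ly6g over these same arrays tends to share that gene's call. The calls of the 5 genes in each list are therefore description only and add no support. With all arrays none of the 5 for S100a8 passed the test and all 5 for Ly6g did. Without Foxa2-deleted replicate 3 all 5 for S100a8 passed (adjusted p from 0.00573 to 0.0279), and of the 5 for Ly6g only Ano9 and Hmgcll1 did, while Fuca2, Tiam1 and Ston2 did not (0.0636, 0.0867 and 0.0816). Krt6b measured 6.28, 6.89, 8.31 and 6.40 on Foxa2-deleted replicates 1 to 4 and 5.36 to 5.70 on control arrays (log2 difference 1.39, SE 0.39, adjusted p = 0.0536, limma). Ano9, a membrane protein gene of the anoctamin family, measured 8.51, 7.74, 8.70 and 8.74 on deleted arrays and 7.44 to 7.56 on control arrays, with the same low replicate 2 as Ly6g (log2 difference 0.93, SE 0.20, adjusted p = 0.023, limma). Ano9 was no longer called without Foxa2-deleted replicate 1 or without any 1 control (at most 0.0723).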

How the data were processed

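Total RNA (150 ng) of each of 8 whole uteri was labelled with biotin by an Affymetrix whole-transcript protocol and put on 1 array, per the labels' protocols. The deposited log2 intensities were made by the authors with RMA, a method of background correction, normalisation and probe set summary, per the submitters' processing notes, which also name limma without a version. Of 35556 probe sets, 21789 had 1 symbol in GEO's platform annotation, 1621 several and 12146 none. Only the first were used, and a gene with several probe sets (999 genes) was represented by the one with the highest mean, which left 19938 genes. Entrez identifiers of the 10 neutrophil genes matched RefSeq on GRCm38.p6, which supplied promoters for all 10.

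Foxa2-deleted minus control differences were fitted with lmFit and eBayes (limma 3.58.1, R 4.3.3), with adjustment by Benjamini-Hochberg over all genes and a threshold of 0.05. The fit was tested on data simulated with the same SD in both groups, which does not match the wider spread among the deleted uteri. Errors are SE of the fit or SD over 4 uteri, so p-values measure the spread between these mice. The members, the 18 gene lists and the tests were chosen with earlier results of these data known. Named were the 10 genes, Foxa2, Pgr, up to 4 members of each list past the threshold (or the 2 with the smallest p) and the 5 genes most correlated with S100a8 and with Ly6g. Alternatives were 3 other scalings, 2 filters on dim genes, other uses of probe sets, 3 variance models, a replicate block and omission of each array. Same-numbered arrays did not deviate together (correlations between -0.05 and 0.06), so the numbers were not taken as pairs.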

Additional observations from a re-analysis of the deposited data

Results flagged for a closer look

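In groups of 4 arrays, a single array was tested for standing apart by the gap to its nearest neighbour as a share of the group's range. Of 122 groups of named genes examined, 10 had such an array. Chance alone gives about 1 in 20 in genes chosen without sight of the values. The neutrophil genes and the gene lists were chosen with earlier results of these data known, so that rate does not hold for them. Among the neutrophil genes Foxa2-deleted replicate 3 stood apart in S100a9 at 9.02 (next 7.67) and in Csf3r at 10.49 (next 9.13), and control replicate 2 in Camp at 7.67 (next 7.80). Foxa2-deleted replicate 3 also stood apart in Il1a at 10.25 and Cxcl15 at 6.25. It did so in Tpi1 at 12.05 and Slc2a6 at 10.45 too. These were examined because they ran like S100a8, which is itself highest on that array, so that rate does not hold for them either. Nor does it hold for Fuca2, where Foxa2-deleted replicate 2 stood apart at 9.84. Fuca2 was examined because it ran like Ly6g, which is itself lowest on that array. The remaining arrays were control replicate 3 in Cst3 at 12.47 and in Cd22 at 7.50.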

How the results depend on the processing

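Of the 10 neutrophil genes, Ly6g rose in all 10 alternatives that kept every array and tested it (difference 1.13 to 1.24, adjusted p up to 0.047), and S100a8, S100a9, Csf3r and Il1b rose in 2 of theirs, both with array weights. With arrays left out in turn Retnlg ran from -0.05 (without Foxa2-deleted replicate 3) to 0.48 and Ngp from -0.066 to 0.0233. Ngp turned to 0.02 (0.0175) on arrays centred on their median, to 0.01 (0.0142) and 0.0075 without Foxa2-deleted replicates 1 and 2, and to 0.0167 and 0.0233 without control replicates 1 and 4, and passed in none. Il5ra, an eosinophil marker, ran from -0.0225 (without Foxa2-deleted replicate 3) to 0.19, and Alas2, a red cell gene, from -0.0875 (without Foxa2-deleted replicate 2) to 0.16, with -0.01 without control replicate 3. The cause was not tested. Over all genes 2209 changed, 898 higher and 1311 lower, and 653 by at least 1.5-fold. With arrays left out in turn the 4 counts ran from 556 to 3059, 196 to 1374, 348 to 1777 and 270 to 966. The replicate block, where equal numbers are not known to pair animals, gave 1062 changed genes, 435 higher and 627 lower, and kept Ly6g as the 1 neutrophil gene called. Among other named genes it ended the calls of Pgr, Asprv1, Csta1, Cxcl3, Icam1, Sele, S100a6, S100a11, Kit, Ptprc, Krt4, Krt13, Krt14 and Ivl. Those of Foxa2, Krt8, Lcn2, Ltf, Pglyrp1, Padi4, Cxcr2, Il1a, S100g and Cxcl15 stayed. Genes higher numbered 533 without the lower 50% of genes, which tests fewer genes and only 2 of the 10, and 1351 with array weights. Centring on the array median gave 1082 higher and 982 lower. S100a8, Ngp and Trem1 were too dim for the filter at 25%.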
